A study of Mus musculus with 9 samples.

Results

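Expression of 10 genes of the Notch pathway was followed in the mouse prostate cancer line MYCCaP and in lines grown out of its recurrent tumours. The genes were the receptors Notch1, Notch2, Notch3 and Notch4, the ligands Jag1, Jag2 and Dll1, and the effectors Hes1, Hey1 and Nrarp. They were chosen by name from the probe sets annotated to these symbols, and they are 10 of the 22180 named genes of the array. Each was read by 1 probe set (a group of short probes for a transcript), except Dll1, which had a further one. All 10 passed the filter on dim genes, which kept 15526 genes with a mean of at least 5.81 on the log2 scale. Passing it does not show that a gene is expressed. Over the 9 arrays the dimmest were Hey1 (mean 6.25), Hes1 (6.53), Dll1 (6.56) and Jag2 (6.65). The lymphocyte markers Cd3e (6.02 to 6.78 over the samples), Cd3d (5.72 to 6.57) and Nkg7 (6.66 to 7.16) also passed. Cd3e and Cd3d were at levels similar to those of the dimmest Notch genes. The range of Nkg7 held the means of Notch3 (6.89) and Nrarp (7.15). For all of these Notch genes a real level and background signal cannot be told apart.

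RNA levels were read on 9 microarrays of the Affymetrix Mouse Gene 2.0 ST type. MYCCaP comes from a prostate tumour of a mouse in which a prostate-specific promoter drives a MYC transgene, and all 3 groups share that origin. The parental line was kept with dihydrotestosterone (DHT), an androgen, received neither agent, and was measured on 3 technical arrays, which were averaged into 1 sample. The vehicle group holds 3 lines, labelled biological replicates, from tumours that recurred in castrated mice receiving vehicle. The AZD1208 group holds 3 such lines from castrated mice receiving AZD1208, an inhibitor of the PIM kinases. Both recurrent groups were cultured without DHT. The labels do not say whether each line came from a mouse of its own, nor the age of the mice, so the p-values cover only how these lines vary. The parental line differs from the recurrent lines both in DHT and in not having been grown in a castrated mouse, and these cannot be told apart.

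Notch receptors are membrane proteins that are activated by ligands of the Jagged and Delta-like families on neighbouring cells. Ligand binding exposes the receptor to an ADAM protease and then to gamma-secretase, which frees its intracellular domain. That domain joins the DNA-binding protein RBPJ and a Mastermind coactivator in the nucleus and switches on genes such as Hes1, Hey1 and Nrarp. HES and HEY proteins are transcriptional repressors, and NRARP binds the intracellular domain and limits the signal. In the prostate the pathway is known for its part in epithelial progenitor growth and basal and luminal differentiation.

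Of the 10 genes, 2 lay outside all 3 parental arrays on the same side in all 6 recurrent lines, namely Notch1 (above) and Nrarp (below). The 250 bases before the start of each are therefore shown, from RefSeq on GRCm38.p6, 5′ to 3′ on the gene's strand. Both genes lie on mouse chromosome 2, Notch1 at chr2:26503823-26504072 (minus strand) and Nrarp at chr2:25180508-25180757 (plus strand). Capitals mark a searched motif.
Notch1: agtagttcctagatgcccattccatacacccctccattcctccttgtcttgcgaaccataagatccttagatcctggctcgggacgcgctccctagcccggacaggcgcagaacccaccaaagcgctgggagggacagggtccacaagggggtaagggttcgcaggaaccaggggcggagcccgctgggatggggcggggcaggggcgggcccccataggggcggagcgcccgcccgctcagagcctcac
Nrarp: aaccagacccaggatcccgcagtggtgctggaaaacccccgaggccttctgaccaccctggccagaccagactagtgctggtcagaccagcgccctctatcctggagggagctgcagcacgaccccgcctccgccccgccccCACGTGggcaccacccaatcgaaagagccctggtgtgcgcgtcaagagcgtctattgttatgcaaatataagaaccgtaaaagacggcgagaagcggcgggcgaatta

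The motifs searched on both strands were TGGGAA, the core of the RBPJ site, CACGTG, the E-box read by MYC and other basic helix-loop-helix proteins, and TGACTCA, the AP-1 site. They were chosen after the expression values were known. The Nrarp window held 1 CACGTG, beginning 108 bases before the start, and the Notch1 window held none of the 3 motifs. Over all 32851 promoter windows of this length, 6.02% held CACGTG, 21.6% held TGGGAA and 4.46% held TGACTCA. A window was matched for 8 of the 10 genes, 9 windows in all, and 0 of these 9 held TGGGAA. No window was used for Hes1 and Hey1. A match or its absence describes only these letters in this stretch.

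The arrays were alike in level, with medians between 6.22 and 6.36, but AZD1208 3 had the narrowest interquartile range of genes tested (2.53, against 2.78 to 3.06 on the others) and the lowest array quality weight (0.34). Identical values on different arrays were common. Of the genes tested 30.4% had the same deposited value, to its last digit, on at least 2 arrays, and 1.1% on all 3 parental arrays. Hes1 was among the latter, so its technical SD is 0. Of the 6 prostate and epithelial markers tested, Hoxb13 was between 8.44 and 8.92 and Krt8 between 8.24 and 10.44 over the 7 samples. Krt18 (6.99 in the parental sample, 6.47 to 6.91 in the lines) and Cdh1 (6.995 in the parental sample, 6.45 to 6.96 in the lines) were dimmer. Epcam (4.51 to 5.06) lay below the filter. Against the parental line, 4 of the 6 were lower in recurrent lines and 2 higher. In limma 1 of the lower ones had an unadjusted p under 0.05, and 0 passed after adjustment. Krt14 was at 7.86 in the parental sample and between 6.87 and 7.34 in the lines. Trp63 went the other way, above its parental value in all 6 lines. With Krt18, Cdh1 and Krt14 it made 4 of the 6 with all lines on 1 side of the parental value, against 22.6% of genes tested. The part of these markers in the Notch differences was not tested. In bulk RNA such as this, fewer cells of a type and less RNA per cell cannot be told apart.

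**Figure D1:**
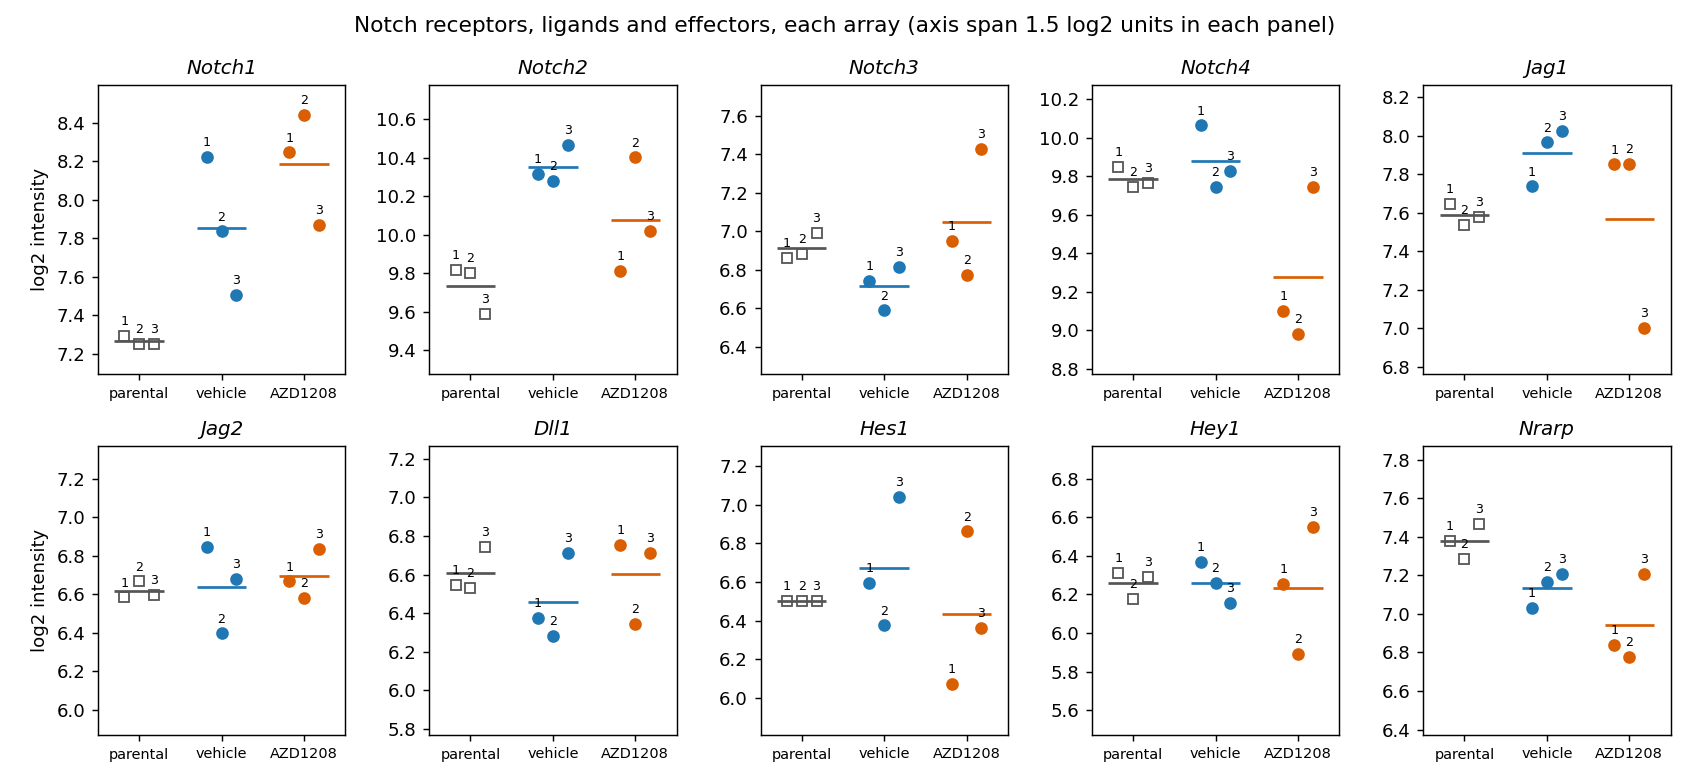
Log2 intensity of each of the 10 genes on every array (open squares, parental technical arrays; blue, vehicle lines; orange, AZD1208 lines; digits, replicate numbers; bars, group means). Notch1 is above, and Nrarp below, the parental arrays in all 6 lines, and Notch4 is low in AZD1208 1 and AZD1208 2 while AZD1208 3 sits with the vehicle lines.

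Recurrent cells were compared with the parental line first. Notch1 was 1.69-fold higher in the recurrent lines and Notch2 1.39-fold higher, while Nrarp was 1.27-fold lower. Notch3, Notch4, the 3 ligands, Hes1 and Hey1 had lines on both sides of the parental value. Notch1, Notch2 and Nrarp are the 3 of 10 genes with all 6 lines on 1 side of the parental mean, which 22.6% of all genes tested also had. No gene passed the adjusted threshold. The test was limma with Benjamini-Hochberg adjustment over 15526 genes, and it called 0 of them (0%), with 429 at an unadjusted p under 0.05 (2.76%). That count was 869 without AZD1208 3 and 992 with array quality weights.

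Some fibroblast markers were higher in all 6 lines than in the parental sample. The mean of the 11 listed was 6.61 in the parental sample and between 6.98 and 7.52 in the 6 lines. Of the 8 that were tested 3 were higher, each at an unadjusted p under 0.05, and 5 were lower. Postn, which encodes the matrix protein periostin, was at 5.36 in the parental sample and between 7.86 and 12.72 in the lines. Pdgfra was at 7.47 and between 8.24 and 10.03, and Fbln2 at 7.20 and between 7.93 and 9.36. The collagen gene Col1a1 was at 7.34 in the parental sample and between 7.06 and 7.47 in the lines, and Dcn, Lum and Fap were below the filter. The part of these markers in the Notch differences was not tested.

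Among the receptors, Notch1 read 7.29, 7.25 and 7.25 on the parental arrays. It read 8.22, 7.84 and 7.51 in vehicle lines 1, 2 and 3, and 8.24, 8.44 and 7.87 in AZD1208 lines 1, 2 and 3. All 6 lines were above all 3 parental arrays, as for 6.94% of genes tested, with vehicle 3 the nearest and AZD1208 2 the farthest. The mean was 8.02 ± 0.34 (SD, n = 6) against 7.27, a log2 difference of 0.75 (SE 0.31). Its adjusted p in limma was 1, with an unadjusted p of 0.0446. Notch1 was the 1 member of 10 with a higher value at an unadjusted p under 0.05, where 2.02% of all genes tested had one. When each of the 3 parental arrays entered the fit as a sample, although they are technical replicates, the limma adjusted p was 0.075, and over its other alternatives it ranged from 0.654 to 1.

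Notch2 read 9.82, 9.80 and 9.59 on the parental arrays. It read 10.32, 10.28 and 10.47 in the vehicle lines and 9.81, 10.40 and 10.02 in AZD1208 lines 1, 2 and 3. All 6 lines were above the parental mean, but AZD1208 1 lay within the range of the parental arrays. The log2 difference was 0.48 (SE 0.25), from 10.22 ± 0.25 (SD, n = 6) against 9.74, with a limma adjusted p of 1. Notch1 and Notch2 did not follow the same order of lines, since vehicle 3 was the lowest line for Notch1 and the highest for Notch2.

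Notch3 and Notch4 did not separate recurrent from parental cells. Notch3 lay between 6.59 and 7.43 in the lines, around a parental mean of 6.91, and its log2 difference was -0.030 (95% interval -0.65 to 0.59). That difference turned its sign without vehicle 2 (0.00115) or AZD1208 2 (0.039). Notch4 differed by -0.21 (95% interval -0.92 to 0.50). These intervals leave room for differences as large as that of Notch2.

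The ligands had small mean differences from the parental line, but for Jag1 the lines went both ways. Jag1, the Jagged ligand that also acts in vessel and epithelial development, was above all 3 parental arrays (7.54 to 7.65) in 5 of 6 lines, at 7.74 to 8.02. It was below them, at 7.004, in AZD1208 3. Single lines ranged from -0.58 (AZD1208 3) to 0.44 (vehicle 3) against the parental mean. The log2 difference was 0.15 (95% interval -0.64 to 0.94). Jag2 differed by 0.05 (95% interval -0.48 to 0.58), with a sign that turned without vehicle 1 (-4.42e-05). Dll1, a Delta-like ligand, differed by -0.08 (95% interval -0.66 to 0.51), and its other probe set by 0.0020. The Dll1 lines were thus on both sides of the parental value, 3 above and 3 below.

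Among the effectors, Nrarp read 7.38, 7.28 and 7.47 on the parental arrays. It read 7.03, 7.17 and 7.21 in vehicle lines 1, 2 and 3, and 6.84, 6.78 and 7.21 in AZD1208 lines 1, 2 and 3. All 6 lines were below all 3 parental arrays, as for 5.06% of genes tested. The mean was 7.04 ± 0.19 (SD, n = 6) against 7.38, a log2 difference of -0.34 (SE 0.22), with a limma adjusted p of 1 and an unadjusted p of 0.17. Together Notch1 and Nrarp make 2 of 10 members with all lines outside the parental arrays on 1 side, against 12% of the genes tested, so the share is near the background.

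Hes1 and Hey1 had no common direction. Hes1 read 6.501 on each parental array, 6.60, 6.37 and 7.04 in vehicle lines 1, 2 and 3, and 6.07, 6.86 and 6.36 in AZD1208 lines 1, 2 and 3. Of the lines 3 were above and 3 below, and both recurrent groups held lines on each side. The log2 difference was 0.05 (95% interval -0.75 to 0.85), and its sign was the opposite when arrays were weighted by quality (-0.061) and without vehicle 3 (-0.042) or AZD1208 2 (-0.057). Hey1 differed by -0.012 (95% interval -0.62 to 0.60). Its sign turned with quantile normalization (0.024), with samples centred on their median (0.0026), and without vehicle 3 (0.014) or AZD1208 2 (0.073).

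**Figure D2:**
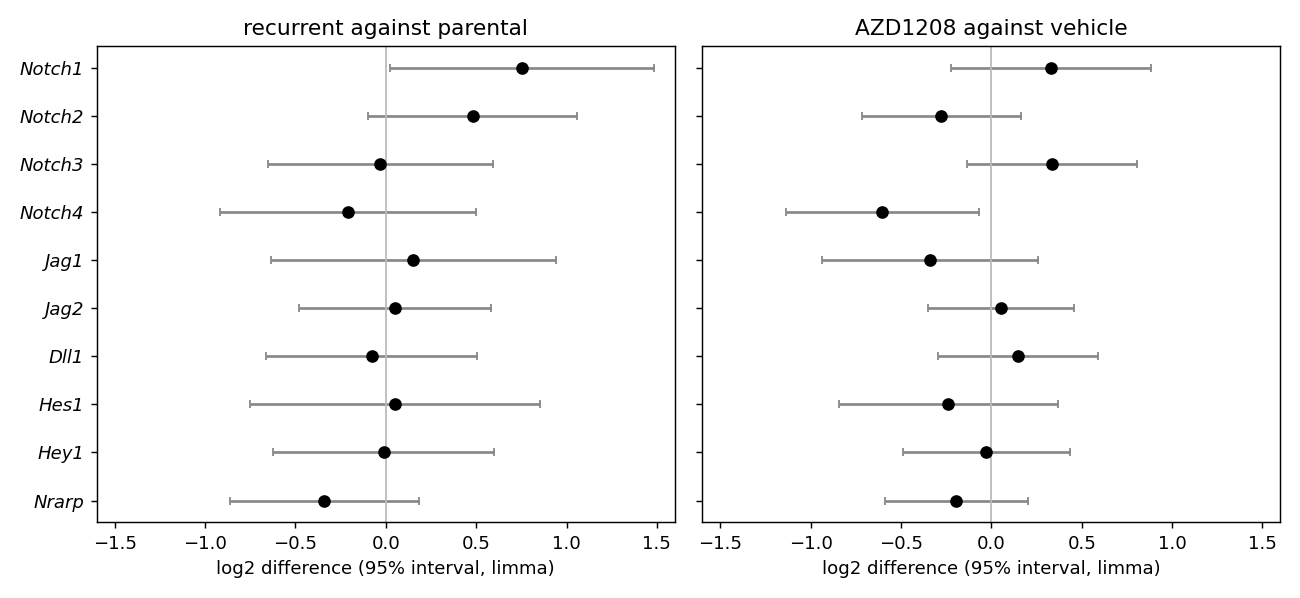
Log2 differences of the 10 genes with 95% intervals from limma, for recurrent lines against the parental line (left) and AZD1208 against vehicle lines (right). The intervals of Notch1 (left, 0.02 to 1.48) and Notch4 (right, -1.14 to -0.07) do not include 0 before adjustment for the number of genes, and neither gene passed the adjusted threshold.

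Lines from AZD1208-treated and vehicle-treated mice were then compared. Notch4, a receptor known mainly from endothelial cells, had the largest difference of the 10 genes and was 1.52-fold lower in the AZD1208 lines. The 3 effectors and Notch2 and Jag1 also had lower means, and Notch1, Notch3, Jag2 and Dll1 higher ones. For none of the 10 genes were the 3 lines of one group apart from the 3 of the other. This held for 3.38% of all genes tested, so 0 of 10 is near the background. Limma called 0 of 15526 genes (0%), with 81 at an unadjusted p under 0.05 (0.522%). The 81 was unstable. It was 393 without vehicle 1, 387 without AZD1208 3, 197 without AZD1208 2, 176 without AZD1208 1 and 61 without vehicle 2 or vehicle 3, and 920 with array quality weights.

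Notch4 read 10.06, 9.74 and 9.83 in vehicle lines 1, 2 and 3. It read 9.10, 8.98 and 9.74 in AZD1208 lines 1, 2 and 3, and 9.85, 9.74 and 9.76 on the parental arrays. AZD1208 1 and AZD1208 2 were below every other array, while AZD1208 3 had the same deposited value as vehicle 2 and as parental array 2. The means were 9.28 ± 0.41 (SD, n = 3) and 9.88 ± 0.17 (SD, n = 3), a log2 difference of -0.60 (SE 0.23). The limma adjusted p was 1 and the unadjusted p 0.0324. Notch4 was the 1 member of 10 with a lower value at an unadjusted p under 0.05, where 0.367% of all genes had one in the same fit, a share that rests on the unstable count above. All genes together reached that limma p less often (0.522%) than its nominal rate of 0.05, and whether Notch4 stands out was not tested. Without AZD1208 3 the difference was -0.84 and the limma adjusted p again 1, and over all alternatives that p ranged from 0.8 to 1. The unadjusted limma p for Notch4 was 0.00203 without AZD1208 3 and 0.00273 with array quality weights. It was 0.088 with quantile normalization and 0.101 without AZD1208 1 or AZD1208 2.

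The levels of endothelial markers overlapped between the groups. Of the 12 listed, 10 passed the filter, and their mean over all 12 lay between 5.95 and 6.14 in vehicle lines and between 5.96 and 6.24 in AZD1208 lines. Among the defining ones, Cdh5 lay between 6.52 and 6.87, Pecam1 between 6.39 and 6.77, and Emcn between 3.80 and 4.17 over the 7 samples, and Tek was below the filter.

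Notch1 was higher in the AZD1208 lines by 0.33 (SE 0.24) and Notch3 by 0.33 (SE 0.20), with limma adjusted p of 1 for both. The groups overlapped for both genes. The Notch1 difference was 0.16 without vehicle 3, 0.20 without AZD1208 2 and 0.51 without vehicle 1. The high mean of Notch3 came from AZD1208 3, at 7.43, and the other lines lay between 6.59 and 6.95, so that the difference was 0.14 without AZD1208 3. Notch2 was lower by -0.28 (SE 0.19; limma adjusted p = 1), with AZD1208 1 the lowest line and AZD1208 2 inside the vehicle range. It was -0.14 without AZD1208 1 and -0.44 without AZD1208 2.

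For the ligands the groups overlapped as well. Jag1 read 7.74, 7.97 and 8.02 in vehicle lines 1, 2 and 3, and 7.85, 7.85 and 7.004 in AZD1208 lines 1, 2 and 3. Its difference of -0.34 (SE 0.25; limma adjusted p = 1) was -0.056 without AZD1208 3. Jag2 differed by 0.05 (95% interval -0.35 to 0.46), and its sign turned without vehicle 2 (-0.068) or AZD1208 3 (-0.017). Dll1 differed by 0.15 (95% interval -0.29 to 0.59), and its other probe set by 0.13.

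The effectors Hes1 (-0.24, 95% interval -0.84 to 0.37), Nrarp (-0.19, 95% interval -0.59 to 0.20) and Hey1 (-0.029, 95% interval -0.49 to 0.43) had lower means in AZD1208 lines, and none passed in limma. Nrarp was at 6.84 and 6.78 in AZD1208 1 and AZD1208 2, below the vehicle lines, and at 7.21 in AZD1208 3, the same deposited value as vehicle 3. The Hes1 difference was -0.053 without vehicle 3, -0.058 without AZD1208 1 and -0.45 without AZD1208 2. That of Nrarp was -0.11 without AZD1208 2 and -0.33 without AZD1208 3. The sign for Hey1 turned without vehicle 1 (0.026) or AZD1208 2 (0.14).

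The spread between lines differed among the 10 genes. The SD over the 6 lines was 0.43 for Notch4, 0.37 for Jag1 and 0.36 for Hes1, against a median of 0.23 over all genes tested. For Notch4 it was larger than in 87.0% of genes tested, and for Jag2, at 0.17, larger than in 25.1%. Of the 10 mural cell markers 4 (Acta2, Pdgfrb, Des and Tagln) were highest in AZD1208 2. There the smooth muscle actin gene Acta2 was at 11.87 and Pdgfrb at 9.78, where the other samples lay between 7.05 and 7.998 and between 6.49 and 7.22. Cnn1 was at 7.21 in AZD1208 2, above every other sample except vehicle 1, where it was highest. The rest were not raised in that way. Cspg4 was at 6.64 in AZD1208 2, Myh11 at 7.15, Abcc9 at 6.60 and Kcnj8 at 6.41. Rgs5 was there at its lowest of the 7 samples, below the filter. The list's mean, carried by a few genes, was 7.52 in AZD1208 2. It was between 6.51 and 6.80 in the other AZD1208 lines and between 6.44 and 6.72 in the vehicle lines. AZD1208 2 was also the line with the highest Notch1, the lowest Notch4 and the lowest Nrarp. The part of these markers in the Notch values was not tested, and the differences without AZD1208 2 were 0.69 for Notch1 and -0.30 for Nrarp against the parental line, and -0.46 for Notch4 against vehicle lines.

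Notch1 and Nrarp ran opposite to each other over the 7 samples (parental mean and 6 lines). Pearson's r was -0.93 (exact permutation p = 0.00357, two-sided) and Spearman's rho -0.94 (exact permutation p = 0.00476, two-sided). This was the strongest of 45 pairs among the 10 genes, and after Benjamini-Hochberg adjustment over the 45 pairs the exact permutation p was 0.161 for r and 0.214 for rho, so it failed the correction. Without the parental sample and AZD1208 2, which lay farthest from the median of Notch1, r was -0.83. Over the 6 recurrent lines alone it was -0.89. All samples share the array type and the processing. The main axis of variation among the arrays (first principal component, 49.8% of the variance) had its lowest values on the parental arrays (-31.7 to -23.3). AZD1208 3 (-17.8) and vehicle 3 (-8.39) came next, and vehicle 1 (38.8) and AZD1208 2 (44.9) were highest. How far this pair of genes only follows that axis was not tested.

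**Figure D3:**
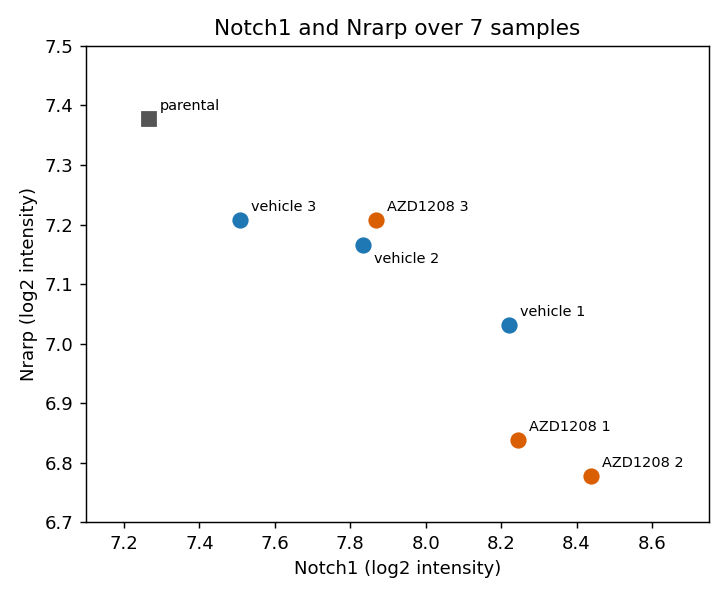
Nrarp against Notch1, both as log2 intensity, in the parental mean (square) and the 6 recurrent lines (circles; blue, vehicle; orange, AZD1208). The parental sample has the lowest Notch1 and the highest Nrarp, and AZD1208 2 the highest Notch1 and the lowest Nrarp.

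The other pairs were weaker or rested on few samples. Notch3 and Jag1 had an r of -0.90 (exact permutation p = 0.027, adjusted 0.522), which was -0.22 without AZD1208 3 and vehicle 2. Of the 45 pairs 4 had an exact permutation p under 0.05 for r and 0 after adjustment. Genes whose pattern was most like that of the 3 members with the largest SD over the lines were also sought, over the 7 samples and without a test. For Notch4 these were Prkcz (r = 0.98), Mms19 (0.97) and Kcnk5 (0.95). For Jag1 they were Appbp2, Mfn1 and Maip1 (0.99 each), all of which were lowest in AZD1208 3. For Hes1 they were Zfp324 (0.99), Gdap2 (0.98) and Slc20a2 (0.97). These were picked as the highest of 15526 genes over few samples.

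Of 48 further genes of the pathway, 45 had a probe set with 1 symbol and 44 were tested. In recurrent against parental lines 29 were higher and 15 lower, with a median log2 difference of 0.07, against a median of -0.02 and 45.5% higher among all genes tested. None of the 44 passed in limma, and 1 of the 44 had an unadjusted p under 0.05, where 2.76% of all genes tested had one. The 1 gene was Maml3, a Mastermind coactivator, which was 1.87-fold higher (0.90, SE 0.34; limma adjusted p = 1). Maml3 was at 7.65 in the parental mean, at 8.23, 9.06 and 8.79 in vehicle lines 1, 2 and 3 and at 8.07, 8.52 and 8.62 in AZD1208 lines 1, 2 and 3. All 6 lines were above all 3 parental arrays, as for 6.94% of genes tested. Of the 44 genes, 8 had all 6 lines on 1 side of the parental mean, which 22.6% of all genes tested also had.

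The genes listed for the nuclear step, whose products do not all act in 1 direction on the signal, had higher means as a list. All 8 that were tested were higher in recurrent lines, with a median of 0.35 and 0 past the threshold, and 7 were higher with quantile normalization. They included Maml2 (0.70, SE 0.46), the ubiquitin ligase gene Fbxw7 (0.45, SE 0.31), whose product marks the Notch domain for degradation, and Rbpj (0.28, SE 0.30), which encodes the DNA-binding partner. Maml2 and Maml3 were above all parental arrays in 6 of 6 lines, as were 6.94% of genes tested, and Rbpj in 4. The smallest differences were those of Snw1 (0.066, SE 0.21), Spen (0.075, SE 0.29) and Maml1 (0.12, SE 0.24).

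Of the genes for receptor cleavage, 7 of 8 were higher (median 0.19, 0 past the threshold). Ncstn, the nicastrin subunit of gamma-secretase, was 1.42-fold higher (0.50, SE 0.23; limma adjusted p = 1). It was above all parental arrays in 6 of 6 lines, as were 6.94% of genes tested. Adam10, the protease of the first cut after ligand binding, ranged from 1.52 above the parental mean in AZD1208 2 to 0.33 below it in AZD1208 3 (-0.33). Psenen, another gamma-secretase subunit, was lower (-0.15, SE 0.21). Adam10 thus varied between lines by more than it differed from the parental line.

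Among ligand and receptor trafficking genes 9 of 11 were higher (median 0.14), including Neurl1a, which encodes a ubiquitin ligase (0.55, SE 0.25), and Dtx3, a Deltex family gene (0.48, SE 0.23). Dtx4 was lower (-0.51, SE 0.55). The other HES and HEY family and related genes were lower in 5 of 7 (median -0.10), with Id4 at -0.27 (SE 0.26). All 5 other listed ligand genes were lower (median -0.07), with Dlk2 at -0.33 (SE 0.37), where 8457 of all 15526 genes tested were lower. Dll3 (mean 5.96 in recurrent lines) and Dll4 (5.88) lay close to the filter's limit of 5.81. Of the genes for receptor glycosylation 3 of 5 were higher (median 0.0077), with Rfng, a Fringe glycosyltransferase, at -0.18 (SE 0.23). None of these genes passed in limma (adjusted p = 1 for each one named).

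**Figure D4:**
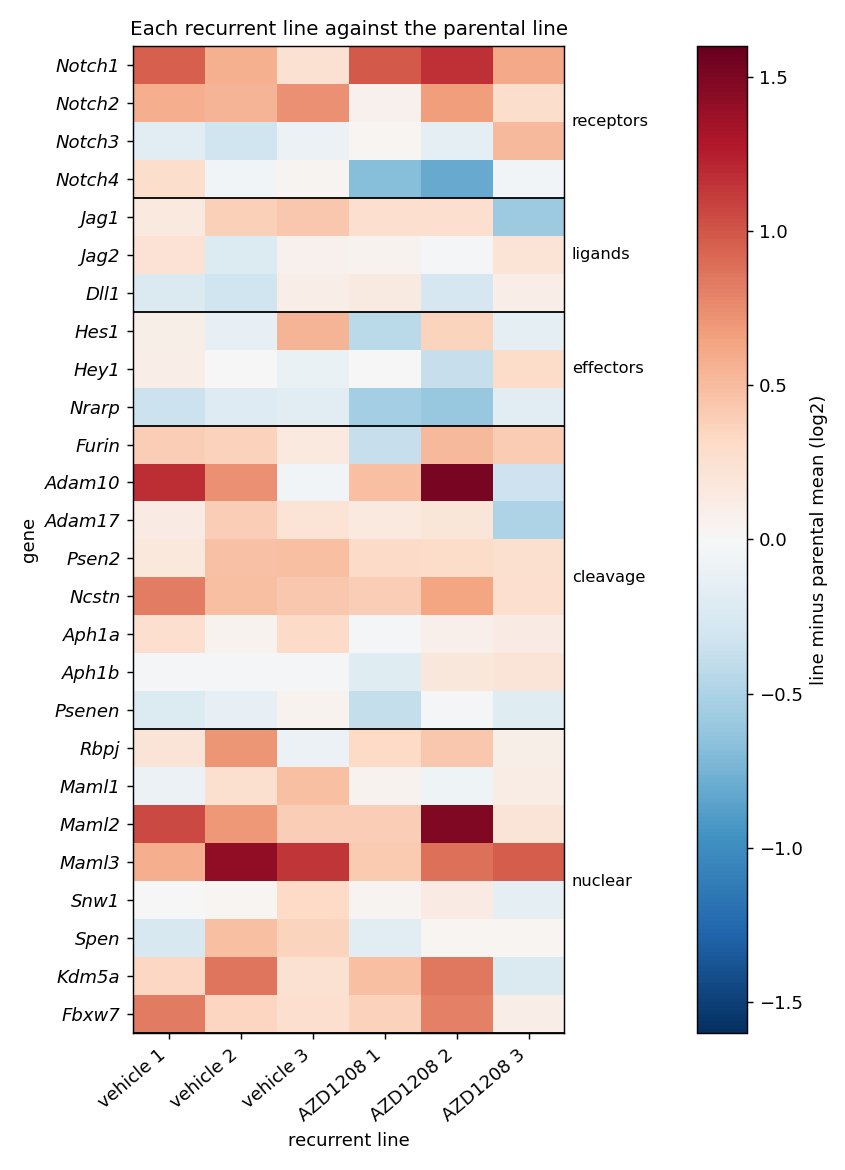
Log2 difference of each recurrent line from the parental mean (red, higher; blue, lower) for the 10 genes and for the cleavage and nuclear genes of the pathway. Notch1, Notch2, Psen2, Ncstn, Maml2, Maml3 and Fbxw7 are above the parental mean in all 6 lines and Nrarp is below it. Of all genes tested 22.6% have all 6 lines on 1 side. Adam10 ranges from -0.33 in AZD1208 3 to 1.52 in AZD1208 2.

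In AZD1208 against vehicle lines 17 of the 44 were higher (38.6%, against 45.2% of all genes tested) and 27 lower. Their median was -0.06 against -0.02 for all genes. Limma passed 0 of the 44, also with 0 at an unadjusted p under 0.05, where 0.522% of all genes tested had one. The higher ones of smallest p were Hes2 (0.25, SE 0.16), Id4 (0.28, SE 0.20), Neurl1a (0.25, SE 0.19) and Dtx3 (0.20, SE 0.17). The lower ones were the Fringe gene Lfng (-0.23, SE 0.15), the protease gene Adam17 (-0.29, SE 0.22), Numb (-0.22, SE 0.17), which encodes an inhibitor of Notch signalling, and Pofut1 (-0.20, SE 0.16), which encodes the enzyme that adds fucose to Notch receptors. Of the 44 genes, 1, Hes2 (higher in AZD1208 lines), had groups that did not overlap, against 3.38% of all genes tested. Of the cleavage genes 7 of 8 were lower and of the nuclear genes 7 of 8, where 8510 of all 15526 genes tested were lower. With AZD1208 3 left out, 4 of the 8 nuclear genes were higher.

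Vehicle and AZD1208 lines were each compared with the parental sample too. Limma called 0 genes for vehicle lines (0%; 357 at an unadjusted p under 0.05, 2.3%) and 0 for AZD1208 lines (0%; 408 at an unadjusted p under 0.05, 2.63%). Of the 10 Notch genes 0 were under an unadjusted p of 0.05 for vehicle lines and 1, Notch1, for AZD1208 lines. These comparisons share the parental sample with the first one. The Notch1 mean was 7.85 ± 0.36 (SD, n = 3) in vehicle lines and 8.18 ± 0.29 (SD, n = 3) in AZD1208 lines, and that of Notch2 10.35 ± 0.10 and 10.08 ± 0.30 (SD, n = 3 each).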

How the data were processed

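Total RNA of 9 arrays in 3 groups was analysed. Each probe set has a deposited log2 intensity for every array, made with oligo per the submitters' processing notes. Its version, background correction and normalization were not stated in the labels. The values carry no detection calls, and the number of arrays limits the precision.

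Of 41345 probe sets 23521 had 1 gene symbol in the platform annotation, 1814 had several and were not used, and 16010 were unnamed. Per gene the probe set with the highest mean was used, and genes whose mean fell in the lowest 30% were dropped. The 3 parental arrays were averaged, and 7 samples were fitted with limma 3.58.1 (lmFit, eBayes) under R 4.3.3 (4 residual and 3.36 prior degrees of freedom), with Benjamini-Hochberg adjustment and a threshold of 0.05. The lone parental sample is assumed to vary like the lines. The procedure was tested on simulated data, with independent noise per gene and planted shifts larger than any group difference of the 10 genes. That test therefore does not cover differences of the size seen for them.

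Replicate numbers 1 to 3 occur in both recurrent groups. No label says that these pair the lines, but deviations from the group means correlated at 0.146, 0.118 and 0.532 for numbers 1, 2 and 3, each above 0.1, so a fit with the number as a block was run beside the main one. Vehicle 1 and AZD1208 2 correlated at 0.264.

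The 10 genes and the lists were chosen with earlier results of these data known. The 10 are always named. Of the other pathway genes, up to 4 higher and 4 lower by smallest unadjusted p were named per comparison, and for the 3 members of largest SD the 3 genes of most similar pattern. Other genes named were chosen after their values were seen.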

Additional observations from a re-analysis of the deposited data

Results flagged for a closer look

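Jag1 in AZD1208 3, at 7.004 on the log2 scale, lay apart from the other 5 recurrent lines, the next lowest of which was vehicle 1 at 7.74. Its gap took up 0.72 of the range of the 6 lines, above the critical value of Dixon's test for 6 samples. Chance marks about 1 in 20 such groups, and 10 genes were looked at. AZD1208 3 is the array with the narrowest interquartile range, 2.53, and the part of this in the Jag1 value was not tested.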

How the results depend on the processing

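Of 20 member results (10 genes in the first and second comparison), 14 kept their direction under every alternative run, and none passed the threshold under any, with a lowest limma adjusted p of 0.075. Of 270 alternative values 14 had the opposite sign, all for genes with a main difference under 0.1. Not from leaving out a line, these were Hes1 against the parental line with array quality weights (-0.061), and Hey1 with quantile normalization (0.024) and with samples centred on their median (0.0026). With single lines left out, the differences against the parental line ranged from -0.13 to 0.039 for Notch3, from -4.42e-05 to 0.11 for Jag2, from -0.057 to 0.14 for Hes1 and from -0.092 to 0.073 for Hey1. Against vehicle lines they ranged from -0.068 to 0.16 for Jag2 and from -0.19 to 0.14 for Hey1. With the parental arrays as 3 separate samples, limma called 156 genes for recurrent, 53 for vehicle and 41 for AZD1208 against parental. With array quality weights it called 1 for recurrent and 2 for AZD1208 against parental. With single lines left out, the count for AZD1208 against parental ranged from 0 to 1, the 1 without vehicle 1. Without single lines, AZD1208 minus vehicle ranged from 0.16 to 0.51 for Notch1, from -0.44 to -0.14 for Notch2, from 0.14 to 0.47 for Notch3, from -0.48 to -0.056 for Jag1, from 0.061 to 0.28 for Dll1, from -0.45 to -0.053 for Hes1 and from -0.33 to -0.11 for Nrarp. In the 6 lines alone, with a replicate block, 0 genes passed and 168 had an unadjusted p under 0.05, Notch4 was at -0.60 (SE 0.21; limma adjusted p = 1), and no call changed. Counts of higher genes were also run with AZD1208 2 or AZD1208 3 left out, chosen after seeing the data. The 10 genes then held 5 or 6 higher against the parental line and 3 or 5 against vehicle lines. Of the 8 nuclear genes, against vehicle lines, the number higher was 1 in all lines, 4 without AZD1208 3, 2 with quantile normalization and 0 with centring or without AZD1208 2.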
